A study of Mus musculus with 27 samples.

Results

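The miR-30 family of miRNAs was followed through 3 subcellular fractions of 3 kinds of mouse cells. Its members were every line of the deposited small RNA table, here called an entry, whose name is mmu-miR-30 followed by a letter from a to f, with any copy or arm suffix. The rule found 10 of 1013 entries, or 10 of the 483 entries for miRNA. They are 4 entries for a 5p arm (miR-30a, miR-30b, miR-30d and miR-30e) and 6 for a 3p arm (the same miRNAs and both copies of miR-30c, miR-30c-1 and miR-30c-2). No hairpin entry matched, and the 5p arm of miR-30c and miR-30f are not analysed here.

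Small RNA was sequenced from mESC, the E14 embryonic stem cell line kept in LIF, from mNPC, a neural progenitor line established by the depositing laboratory and given EGF and FGF daily at 10 ng/ml, and from mCtx, primary cortical neurons cultured for 5 days. The labels name no engineered allele and no treatment beyond these media for any of the groups. Each cell type was split into chromatin, soluble nucleoplasm and cytoplasm, with 3 libraries per fraction, so that 9 groups and 27 libraries were compared. mESC and mNPC are 1 line each, and mCtx is a primary culture that can hold more than 1 kind of cell. The labels call the libraries biological triplicates without stating separate cultures, so p-values here measure the spread between libraries, which may be technical.

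A miRNA hairpin is cut in the nucleus by Drosha and in the cytoplasm by Dicer, which leaves a duplex of a 5p and a 3p strand. One strand, usually the more abundant one, is kept by an Argonaute protein and guides it to messenger RNAs through the seed near its 5′ end. The 5p strands of the miR-30 family share their seed and therefore many predicted targets. The family is broadly expressed in mammals and has been studied in epithelial to mesenchymal transition, cardiac fibrosis and kidney development. Members of it are also abundant in brain.

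The 5p sequences are shown because the main levels below belong to strands that can hardly be told apart by sequence. Capitals mark the seed, bases 2 to 8, in the RefSeq sequences (GRCm38.p6, 5′ to 3′). The miR-30c-5p sequence is added for comparison.
mmu-miR-30a-5p: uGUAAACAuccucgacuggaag
mmu-miR-30e-5p: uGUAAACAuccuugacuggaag
mmu-miR-30c-5p: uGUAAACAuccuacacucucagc
All 3 have the seed GUAAACA. Counted from the 5′ end, miR-30e-5p differs from miR-30a-5p by 1 of 22 bases, C13U, and miR-30c-5p differs from miR-30a-5p at 5 of 22 aligned bases. How the authors assigned a read that carries a sequencing error at such a base is not given in the sources used here, so some exchange between miR-30a and miR-30e entries cannot be told apart from their true levels.

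The 3p strands printed here fall into another pair of seed groups, shown because the arms of 1 hairpin carry different seeds.
mmu-miR-30a-3p: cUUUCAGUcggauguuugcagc
mmu-miR-30e-3p: cUUUCAGUcggauguuuacagc
mmu-miR-30c-1-3p: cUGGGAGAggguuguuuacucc
mmu-miR-30c-2-3p: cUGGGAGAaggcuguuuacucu
miR-30a-3p and miR-30e-3p share the seed UUUCAGU and differ by 1 of 22 bases, G18A. The copies of miR-30c share the seed UGGGAGA and differ at 3 bases, G9A, U12C and C22U with miR-30c-1-3p named first. In the hairpins of the most abundant members, with capitals for the mature arms, the strands lie as follows.
Mir30a: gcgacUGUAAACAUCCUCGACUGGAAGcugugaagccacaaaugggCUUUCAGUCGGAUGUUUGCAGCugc
Mir30e: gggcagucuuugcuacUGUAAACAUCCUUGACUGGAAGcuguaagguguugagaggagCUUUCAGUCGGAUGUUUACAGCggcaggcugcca
RefSeq sequences were matched for 6 of the 10 entries, and miR-30b and miR-30d are named only.

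The family lies in 3 pairs of genes (GRCm38, positions counted from 1). On chromosome 1, plus strand, miR-30a-5p is at chr1:23272274-23272295 and its 3p arm at chr1:23272315-23272336, between annotated genes. The hairpin of miR-30c-2 starts 19361 bp further on, in an exon of the long noncoding RNA Gm27028, with its 3p arm at chr1:23291754-23291775. On chromosome 4, minus strand, miR-30e-5p at chr4:120772660-120772681, miR-30e-3p at chr4:120772618-120772639 and miR-30c-1-3p at chr4:120769546-120769567 lie in introns of Nfyc, a subunit of the transcription factor NF-Y, with 2983 bp between the hairpins. Mir30f is annotated over Mir30e on the opposite strand. On chromosome 15, minus strand, miR-30b-5p is at chr15:68337469-68337490 and miR-30b-3p at chr15:68337431-68337452, in an exon of the noncoding transcript Gm26621. At a distance of 3697 bp, miR-30d-5p at chr15:68341257-68341278 and miR-30d-3p at chr15:68341217-68341238 lie in exons of the noncoding genes Gm20732 and Gm37296.

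Values are in RPM, reads per 1000000 reads, and no read depth was given. Listed values summed to between 73.9% and 97.4% of the full scale of 1000000 per library, and 288 to 615 entries were above 0. Below a lowest listed value of 5.16 to 59.07 RPM a library lists 0, so a 0 is no proof of absence. The share of miRNA among listed reads was 27.5% ± 2.83 in mESC chromatin, against 82.7% ± 4.28 in mESC cytoplasm. It was 62.9% ± 9.14 in mNPC chromatin against 95.4% ± 0.34 in mNPC cytoplasm, and 74.4% ± 1.21 in mCtx chromatin against 88.4% ± 0.66 in mCtx cytoplasm (SD, n = 3). Marker miRNAs of stem cells and neurons followed the labels. The stem cell list (8 of 11 names, 16 entries, led by miR-295-3p and miR-293-5p) summed to 19861 to 93870 RPM in mESC and was at 0 in all mNPC and mCtx libraries. The neuron list (9 names, 24 entries, led by miR-128-3p and miR-132-3p) summed to 52.0 to 977 RPM in mESC, 354 to 1680 RPM in mNPC and 17546 to 50080 RPM in mCtx. The progenitor list (2 of 3 names, 7 entries, led by miR-9-5p) summed to 120 to 925 RPM in mESC, 35131 to 111178 RPM in mNPC and also 45651 to 139891 RPM in mCtx. Markers of glia (4 entries, led by miR-338-3p and miR-146a-5p) stayed at or under 402 RPM. Those of microglia and blood (4 entries, led by miR-150-5p) reached 4016 RPM in mESC and 44.5 RPM elsewhere. Those of endothelium and mesenchyme (8 entries, led by miR-143-3p and miR-126a-5p) reached 7594 RPM in mESC, 345 RPM in mNPC and 4099 RPM in mCtx. The list sums count a mature miRNA at each of its loci. miR-9-5p entries averaged 16731, 16706 and 16698 RPM over all libraries, and miR-128-3p entries 4340 and 4139 RPM. Sums are therefore not compared between lists. mCtx cytoplasm replicate 1 stood apart from its group. Its Pearson's r with the other libraries, across entries, was 0.86 and 0.861, against 0.965 between these. Its neuron list summed to 17546 RPM, against 34269 and 35452 RPM in replicates 2 and 3, and its progenitor list to 139891 RPM, against 71219 and 66045 RPM. Some results that rest on it are given with and without it, and others only with it. The part of its makeup in them was not tested. In bulk samples, fewer cells of a type and less RNA per cell cannot be told apart.

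The comparison of cell types asked how the family stands in stem cells, progenitors and neurons. In the cytoplasm, where mature miRNAs act on messenger RNAs, all 3 abundant 5p entries were several times higher in mNPC than in mESC. In mCtx they parted: the levels of miR-30d-5p overlapped with those in mNPC, miR-30a-5p was lower than in mNPC, and miR-30e-5p was lower than in either other cell type. Differences are log2(RPM + 1) from a limma fit over 851 entries, with p-values adjusted over these by the Benjamini-Hochberg method and a threshold of 0.05. Of the 10 family entries, 6 were higher and 0 lower in mNPC than in mESC cytoplasm, where 14.1% of all entries were higher and 27.5% lower (41.6% called). In mCtx against mNPC cytoplasm 0 were higher and 4 lower (of all entries, 21.5% higher and 10.8% lower, 32.3% called). In mCtx against mESC cytoplasm 5 were higher and 1 lower (of all entries, 21% higher and 24.4% lower, 45.5% called). The higher entries in mNPC were miR-30a-5p, miR-30d-5p and miR-30e-5p with miR-30a-3p, miR-30b-3p and miR-30d-3p, and the lower ones in mCtx than in mNPC were miR-30a-5p, miR-30e-5p, miR-30b-3p and miR-30d-3p. Those higher in mCtx than in mESC were miR-30a-5p, miR-30b-5p, miR-30d-5p, miR-30b-3p and miR-30e-3p, and the lower one was miR-30e-5p. The median difference over the 10 entries was 2.71, -1.84 and 2.03 in these comparisons, beside a median of 0 over all entries in each.

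miR-30a-5p, the member with the highest mean over all 27 libraries, read 10692, 10663 and 10186 RPM in mESC cytoplasm, 41783, 53890 and 55589 RPM in mNPC cytoplasm, and 24502, 11919 and 16914 RPM in mCtx cytoplasm. The cell types did not overlap, with mNPC highest and mESC lowest, although mCtx replicate 2 came close to mESC. The log2 difference was 2.25 (SE 0.23) for mNPC against mESC (limma adjusted p = 4.49e-08) and -1.55 (SE 0.23) for mCtx against mNPC (limma adjusted p = 1.23e-05). For mCtx against mESC it was 0.70 (SE 0.23, limma adjusted p = 0.0161), and without mCtx cytoplasm replicate 1 it was 0.43 (limma adjusted p = 0.137). With libraries scaled to their miRNA reads, described below, it was 0.40 (limma adjusted p = 0.101). By mean RPM it ranked 17th of 283 miRNA entries above 0 in mESC cytoplasm, 1st of 236 in mNPC cytoplasm and 14th of 337 in mCtx cytoplasm.

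miR-30e-5p, with the same seed and 1 changed base, read 12706, 13244 and 14917 RPM in mESC cytoplasm, 45913, 46946 and 45540 RPM in mNPC cytoplasm, and 4653, 6745 and 8523 RPM in mCtx cytoplasm. All mCtx libraries lay below all mESC libraries, and the mNPC libraries lay far above both. The log2 difference was 1.76 (SE 0.23) for mNPC against mESC (limma adjusted p = 1.99e-06), -2.84 (SE 0.23) for mCtx against mNPC (limma adjusted p = 3.27e-09) and -1.08 (SE 0.23) for mCtx against mESC (limma adjusted p = 0.000673). Over fits without 1 library, the difference of mCtx against mESC ran from -1.278 to -0.842. miR-30e-5p ranked 14th in mESC cytoplasm, 2nd in mNPC cytoplasm, directly after miR-30a-5p, and 31st in mCtx cytoplasm.

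miR-30d-5p, from the pair on chromosome 15, read 3920, 3451 and 3576 RPM in mESC cytoplasm, 20146, 22439 and 24241 RPM in mNPC cytoplasm, and 17262, 20465 and 21934 RPM in mCtx cytoplasm. The mNPC and mCtx libraries overlapped, and both stood clear of mESC. The log2 difference was 2.61 (SE 0.15) for mNPC against mESC (limma adjusted p = 3.05e-12) and 2.44 (SE 0.15) for mCtx against mESC (limma adjusted p = 1.05e-11). For mCtx against mNPC it was -0.17 (SE 0.15, limma adjusted p = 0.544), which does not show that the levels are equal. When centred on entries listed in every library it was -1.01 and called (limma adjusted p = 6.43e-05). It ranked 34th in mESC, 17th in mNPC and 8th in mCtx cytoplasm, where it was the highest member.

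miR-30b-5p, its neighbour, was far lower. It read 55.1, 0 and 44.1 RPM in mESC cytoplasm, 42.7, 42.4 and 48.7 RPM in mNPC cytoplasm, and 207, 199 and 246 RPM in mCtx cytoplasm. The mCtx libraries lay clear of all others. For mCtx against mESC cytoplasm the limma adjusted p was 0.0319, and 1 mESC library was listed at 0. This call was lost without mESC cytoplasm replicate 2 (limma adjusted p = 0.266) and without any 1 of the mCtx cytoplasm libraries, and it missed the threshold when scaled to miRNA reads (limma adjusted p = 0.0525) or with only these groups in the fit (0.109). For mCtx against mNPC cytoplasm, where no library was at 0, the log2 difference was 2.26 (SE 1.48, limma adjusted p = 0.311). The standard error there is shared with groups that hold zeros, and with only these groups in the fit the limma adjusted p was 0.000336. Among the 5p entries, miR-30b-5p alone had its highest mean cytoplasmic level in mCtx.

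The nuclear fractions gave the same order of mESC against mNPC. In chromatin, 4 of the 10 entries were higher and 0 lower in mNPC than in mESC (of all entries, 15.9% higher and 29% lower, 44.9% called), and in nucleoplasm 3 were higher and 0 lower (of all entries, 12.8% higher and 35.8% lower, 48.6% called). miR-30a-5p averaged 29959 ± 7602 RPM in mNPC chromatin and 3120 ± 778 RPM in mESC chromatin (SD, n = 3 each), a difference of 3.27 on the log2 scale (SE 0.23, limma adjusted p = 1.09e-10). miR-30e-5p averaged 25480 ± 9355 RPM in mNPC chromatin and 3544 ± 803 RPM in mESC chromatin, a difference of 2.81 (SE 0.23, limma adjusted p = 1.97e-09). miR-30d-5p averaged 13563 ± 2578 RPM in mNPC chromatin and 1199 ± 182 RPM in mESC chromatin, a difference of 3.49 (SE 0.15, limma adjusted p = 1.73e-14). None of these 3 pairs of groups overlapped. The 2 groups differ in their share of miRNA, and scaled to miRNA reads the differences were smaller, at 1.91, 1.45 and 2.13 for miR-30a-5p, miR-30e-5p and miR-30d-5p, and still called (limma adjusted p = 2.82e-08, 1.51e-06 and 1.52e-12). The other entry called in chromatin was miR-30c-1-3p, which all mESC chromatin libraries listed at 0 (limma adjusted p = 0.000563, and 0.067 with values under 59.1 RPM raised to it). The nucleoplasmic differences were 1.99 for miR-30a-5p, 1.11 for miR-30e-5p and 2.93 for miR-30d-5p (limma adjusted p = 2.65e-07, 0.000433 and 3.77e-13). Scaled in the same way that of miR-30e-5p was 0.73 (limma adjusted p = 0.00304).

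In mCtx against mNPC, 1 of the 10 entries was higher and 1 lower in chromatin (of all entries, 16% higher and 11.9% lower, 27.8% called), and 0 were higher and 2 lower in nucleoplasm (of all entries, 23.5% higher and 10.3% lower, 33.8% called). The one higher in chromatin was miR-30b-5p, with 130, 183 and 148 RPM in mCtx chromatin, against 48.7, 0 and 0 RPM in mNPC chromatin (limma adjusted p = 0.00825, 0.0528 without mNPC chromatin replicate 2, and 0.0642 with only these groups in the fit). miR-30e-5p was lower in both nuclear fractions, by a log2 difference of -0.91 in chromatin (limma adjusted p = 0.00527, and 0.0544 with only these groups in the fit) and -1.31 in nucleoplasm (limma adjusted p = 0.000135). miR-30a-5p was lower in nucleoplasm, at 22833 ± 351 RPM in mCtx and 42185 ± 9092 RPM in mNPC (SD, n = 3 each), a difference of -0.87 (limma adjusted p = 0.00471). Centred on entries listed in every library it was -0.46 and not called (limma adjusted p = 0.155). Its chromatin difference of -0.39 did not pass (limma adjusted p = 0.255), but that scaled to miRNA reads, -0.58, did (limma adjusted p = 0.026). miR-30d-5p differed by 0.07 in chromatin and -0.14 in nucleoplasm, neither past the threshold (limma adjusted p = 1.0 and 0.599).

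Against mESC, 5 entries were higher and 0 lower in mCtx chromatin (of all entries, 22.8% higher and 29.3% lower, 52.1% called), and 2 were higher and 0 lower in mCtx nucleoplasm (of all entries, 20.9% higher and 31.3% lower, 52.2% called). In chromatin, miR-30a-5p, miR-30d-5p and miR-30e-5p differed by 2.88, 3.56 and 1.91, with miR-30e-5p at 12583, 13471 and 13073 RPM in mCtx, against 3771, 2652 and 4208 RPM in mESC. With libraries scaled to miRNA reads, the differences of miR-30a-5p and miR-30d-5p were 1.33 and 2.02 (limma adjusted p = 3.78e-06 and 4.14e-12), and that of miR-30e-5p was 0.36 and did not pass (limma adjusted p = 0.124). miR-30b-5p was above 0 in all mCtx chromatin libraries and listed at 0 in all those of mESC. The other entry called, miR-30c-1-3p, had 0, 44.4 and 33.9 RPM in mCtx chromatin and was at 0 in mESC chromatin (limma adjusted p = 0.0428). Its call was lost with a pseudocount of 10 (0.0973), with only these groups in the fit (0.108) and in 8 fits without 1 library. All its values in these groups lie under 59.1 RPM, so raising them to it sets the difference to 0 by construction. In nucleoplasm, miR-30a-5p and miR-30d-5p differed by 1.12 and 2.78, and miR-30e-5p by -0.20 (limma adjusted p = 0.517), with 12234, 13509 and 10582 RPM in mCtx, against 13913, 14857 and 12738 RPM in mESC. Scaled to miRNA reads it was -0.58 and passed (limma adjusted p = 0.0154).

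**Figure D1:**
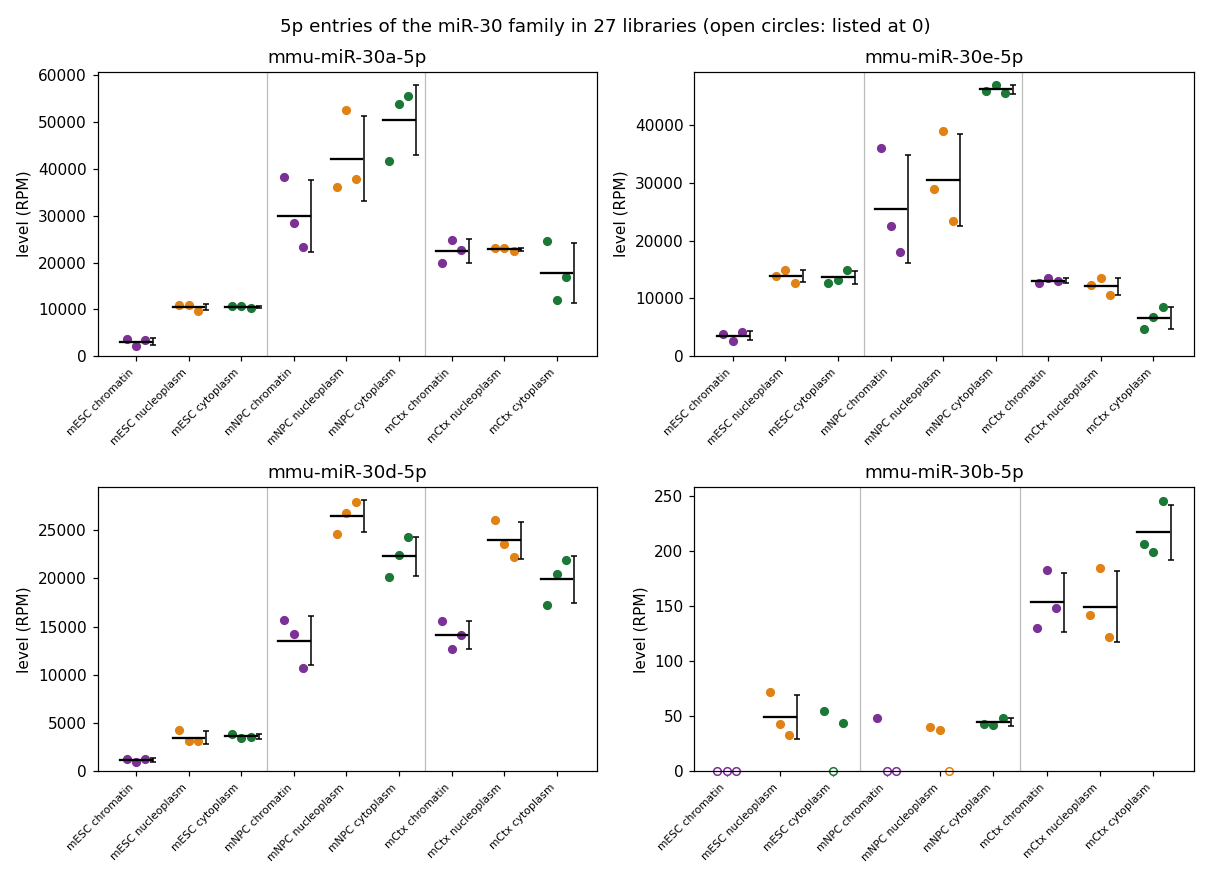
Level in RPM (vertical axis, linear) of the 4 miR-30 5p entries in each of 27 libraries; each point is 1 library, open circles are listed at 0, lines are means and bars SDs (n = 3), drawn only where no library is at 0. miR-30a-5p and miR-30e-5p peak in mNPC, miR-30d-5p is similar in mNPC and mCtx cytoplasm (20146 to 24241 and 17262 to 21934 RPM), and miR-30b-5p is highest in mCtx.

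The family entries together can be set against all miRNA in the same library, a share that does not depend on how much snoRNA or tRNA a fraction holds. Their sum lacks the 5p arm of miR-30c, which is not analysed here. The summed entries made up 4.01% ± 0.0789 of listed miRNA reads in mESC cytoplasm, 13.2% ± 1.18 in mNPC cytoplasm and 5.21% ± 0.499 in mCtx cytoplasm (SD, n = 3). In chromatin the shares were 3.68% ± 0.431 in mESC, 12.5% ± 1.58 in mNPC and 8.08% ± 0.132 in mCtx. In nucleoplasm they were 4.04% ± 0.291, 11.04% ± 1.9 and 6.56% ± 0.39 in the same order of cells. The mESC fractions lay within 3.19% to 4.34%, while the mCtx fractions did not overlap, with 7.93% to 8.17% in chromatin, 6.12% to 6.85% in nucleoplasm and 4.64% to 5.58% in cytoplasm. Of the 450 mature names in the miRNA total, 28 have more than 1 entry, often with nearly the same value at each. With each name counted once, the cytoplasmic shares were 4.18% ± 0.0998 in mESC, 17.9% ± 1.39 in mNPC and 7.73% ± 0.698 in mCtx, and the chromatin shares 3.85% ± 0.435, 16.9% ± 1.93 and 12.02% ± 0.125. The order of the cell types was the same on both counts.

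**Figure D2:**
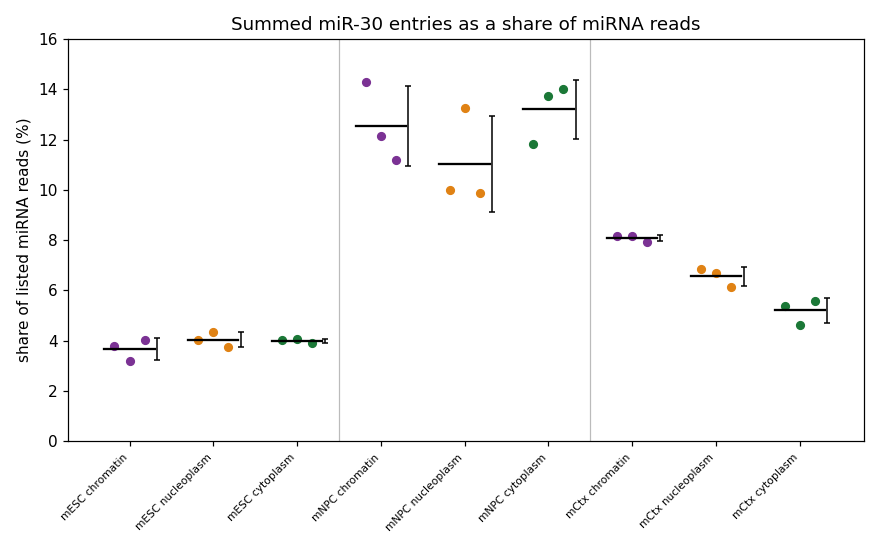
Sum of the 10 miR-30 entries as a percentage of all listed miRNA reads of the library (vertical axis, linear from 0), with 1 point per library, lines for means and bars for SDs (n = 3). The mESC libraries lie at 3.19% to 4.34%, the mNPC libraries at 9.87% to 14.3% and the mCtx libraries at 4.64% to 8.17%.

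Within the family the balance of the 3 abundant 5p strands shifted with cell type, and these shares are given as a description. In mESC cytoplasm miR-30e-5p made up 48.5% of the family's reads, miR-30a-5p 37.5% and miR-30d-5p 13.02%. In mNPC cytoplasm miR-30a-5p and miR-30e-5p were near each other, with 41.9% and 38.7%, and miR-30d-5p held 18.6%. In mCtx cytoplasm miR-30d-5p led with 44.7%, followed by miR-30a-5p with 39.2% and miR-30e-5p with 14.9%. The ratio of miR-30e-5p to miR-30a-5p averaged 1.30 ± 0.146 in mESC, 0.930 ± 0.149 in mNPC and 0.420 ± 0.202 in mCtx cytoplasm (SD, n = 3). That of miR-30d-5p to miR-30e-5p averaged 0.270 ± 0.0353, 0.483 ± 0.047 and 3.11 ± 0.572 in the same order.

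The shift was also present in nuclear fractions. In chromatin the share of miR-30e-5p in the family was 45.1% in mESC, 36.2% in mNPC and 26.2% in mCtx, and that of miR-30d-5p 15.4%, 19.9% and 28.4%. In nucleoplasm miR-30e-5p held 49.4%, 30.4% and 20.4%, and miR-30d-5p 12.5%, 27.05% and 40.4%. The share of miR-30a-5p moved less, between 37.5% and 45.01% in all 9 groups. In mCtx cytoplasm replicate 1 stood apart, with 52.2% miR-30a-5p and 9.91% miR-30e-5p, against 30.1% and 35.3% miR-30a-5p and 17.0% and 17.8% miR-30e-5p in replicates 2 and 3. The log2 ratio of miR-30d-5p to miR-30a-5p was -0.51, 0.78 and 0.38 in these 3 libraries, against -1.80 to -1.17 in the 9 mESC libraries.

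**Figure D3:**
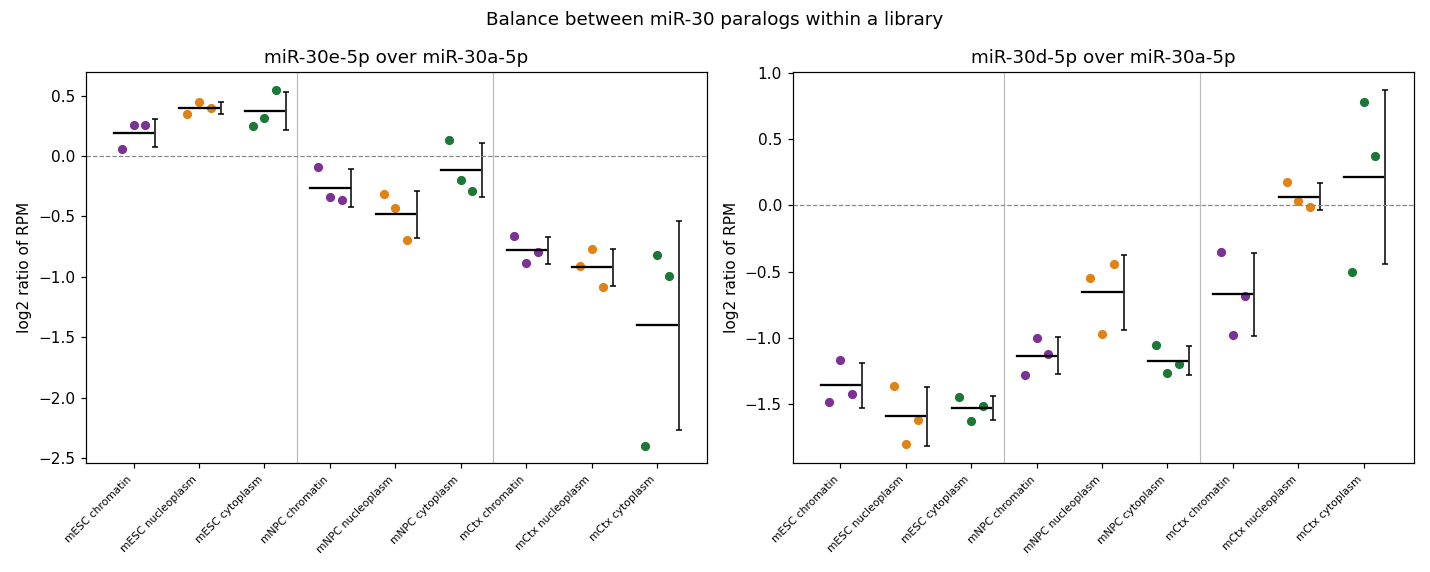
log2 of the ratio of RPM of 2 miR-30 5p strands within a library (vertical axes), miR-30e-5p over miR-30a-5p on the left and miR-30d-5p over miR-30a-5p on the right, with 1 point per library, lines for means and bars for SDs (n = 3). miR-30e-5p exceeds miR-30a-5p in all 9 mESC libraries and is below it in all 9 mCtx libraries, where mCtx cytoplasm replicate 1 is lowest at -2.40.

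The second question of the design was where in the cell the family is found. On the RPM scale miR-30a-5p, miR-30d-5p and miR-30e-5p were lower in chromatin than in cytoplasm of mESC and mNPC, though not when scaled to miRNA reads, while in mCtx miR-30e-5p was higher in chromatin. Of the 10 entries, 0 were higher and 6 lower in mESC chromatin than in mESC cytoplasm (of all entries, 24.9% higher and 29.5% lower, 54.4% called). In mNPC 0 were higher and 6 lower (of all entries, 19.3% higher and 19.5% lower, 38.8% called), and in mCtx 1 was higher and 2 lower (of all entries, 20.2% higher and 23.9% lower, 44.1% called). Of the miRNA entries alone, 46.7%, 23.7% and 25.4% were lower in mESC, mNPC and mCtx, and 2.87%, 2.87% and 5.5% higher. Beside the 3 abundant 5p strands, the lower entries were miR-30b-5p, miR-30c-1-3p and miR-30c-2-3p in mESC, and miR-30b-3p, miR-30d-3p and miR-30c-2-3p in mNPC. In mNPC, miR-30d-3p was at or under 56.9 RPM, so raising values to 59.1 RPM sets its difference to 0 by construction. The mNPC call of miR-30c-2-3p was lost with only these groups in the fit (limma adjusted p = 0.0664). In mESC the calls of miR-30b-5p (limma adjusted p = 0.0364) and miR-30c-2-3p (0.0293) were lost with values raised to 59.1 RPM (1.0 and 0.468), when centred (0.0984 and 0.0925), with only these groups in the fit (0.111 each) and in 5 fits each without 1 library. For miR-30b-5p, at or under 55.1 RPM in both mESC groups, the loss with raised values was fixed in advance. In mCtx the higher entry was miR-30e-5p and the lower ones miR-30d-5p and miR-30b-3p. There miR-30b-3p was at or under 21.4 RPM, so raising values to 59.1 RPM sets its difference to 0 by construction. The median difference over the 10 entries was -1.70, -2.86 and -1.37 in mESC, mNPC and mCtx, beside 0 over all entries and -1.59, -0.18 and -0.48 over the miRNA entries alone.

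In mESC, miR-30a-5p read 3618, 2223 and 3518 RPM in chromatin, against 10692, 10663 and 10186 RPM in cytoplasm. The groups did not overlap, and the log2 difference was -1.79 (SE 0.23, limma adjusted p = 9.91e-07). miR-30e-5p differed by -1.97 (SE 0.23, limma adjusted p = 4.04e-07) and miR-30d-5p by -1.61 (SE 0.15, limma adjusted p = 1.3e-08), with 1292, 989 and 1315 RPM in chromatin, against 3920, 3451 and 3576 RPM in cytoplasm. When each library was scaled to its own miRNA reads, these differences were -0.06, -0.24 and 0.11 and none passed (limma adjusted p = 1.0, 0.375 and 0.532). On that scale 0 of the 10 entries were higher and 3 lower (of all entries, 29.5% higher and 16.3% lower, 45.8% called). The lower ones were miR-30b-5p, miR-30c-1-3p and miR-30c-2-3p, which every mESC chromatin library listed at 0. Scaling leaves a listed 0 at 0, so these calls do not show a lower share of miRNA in chromatin. With each mature name counted once, 1 entry was called.

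In mNPC chromatin, miR-30a-5p read 38215, 28413 and 23249 RPM, against 41783, 53890 and 55589 RPM in mNPC cytoplasm. The difference was -0.77 (SE 0.23, limma adjusted p = 0.0101), and 0.005 when centred on entries listed in every library. Without mNPC chromatin replicate 3 it was -0.60 (limma adjusted p = 0.0699). miR-30e-5p differed by -0.92 (SE 0.23, limma adjusted p = 0.00358) and miR-30d-5p by -0.73 (SE 0.15, limma adjusted p = 0.000464), and the groups did not overlap for any of the 3. Scaled to miRNA reads the differences were -0.03 for miR-30a-5p, -0.17 for miR-30e-5p and 0.02 for miR-30d-5p (limma adjusted p = 1.0, 0.724 and 1.0). On that scale 0 entries were higher and 3 lower (of all entries, 19.2% higher and 10.1% lower, 29.3% called). The lower ones were miR-30b-3p and miR-30d-3p, at 0 in all mNPC chromatin libraries, and miR-30c-2-3p, with 0, 51.7 and 0 RPM there. A listed 0 stays 0 when scaled.

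In mCtx, miR-30e-5p read 12583, 13471 and 13073 RPM in chromatin, against 4653, 6745 and 8523 RPM in cytoplasm. All chromatin libraries lay above all cytoplasmic ones, and the log2 difference was 1.02 (SE 0.23, limma adjusted p = 0.00122). Over fits without 1 library, this difference ran from 0.782 to 1.218. miR-30a-5p read 19865, 24875 and 22683 RPM in chromatin, against 24502, 11919 and 16914 RPM in cytoplasm, where replicate 1 overlapped with chromatin. Its difference was 0.39 (SE 0.23, limma adjusted p = 0.186), and 0.66 without mCtx cytoplasm replicate 1 (limma adjusted p = 0.0196). miR-30d-5p was lower in chromatin, with 15573, 12658 and 14123 RPM, against 17262, 20465 and 21934 RPM in cytoplasm, a difference of -0.49 (SE 0.15, limma adjusted p = 0.0101) that turned to 1.11 when centred on entries listed in every library. It was -0.42 and not called without mCtx chromatin replicate 2, and likewise without mCtx cytoplasm replicate 3.

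On the scale of miRNA reads, the chromatin excess in mCtx was 0.88 (SE 0.19) for miR-30a-5p and 1.498 (SE 0.19) for miR-30e-5p (limma adjusted p = 0.000784 and 1.96e-06), while miR-30d-5p differed by -0.01 (limma adjusted p = 1.0). On that scale 2 of the 10 entries were higher and 1 lower (of all entries, 22.6% higher and 20.1% lower, 42.7% called). As a percentage of listed miRNA reads in mCtx, miR-30e-5p reached 2.12 ± 0.0392 (chromatin), 1.34 ± 0.166 (nucleoplasm) and 0.772 ± 0.228 (cytoplasm; SD of 3 libraries). miR-30a-5p made up 3.64 ± 0.296, 2.53 ± 0.05 and 2.06 ± 0.717 in these fractions, and miR-30d-5p 2.30 ± 0.318, 2.65 ± 0.226 and 2.31 ± 0.291. In the same order of fractions, miR-30a-5p made up in mNPC 5.43 ± 0.55, 4.69 ± 1.03 and 5.56 ± 0.87, and in mESC 1.46 ± 0.211, 1.51 ± 0.108 and 1.51 ± 0.113.

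The fraction differences themselves were compared between cell types, in a test of the difference of differences. For chromatin against cytoplasm, mCtx exceeded mESC by 2.18 for miR-30a-5p and 2.98 for miR-30e-5p (limma adjusted p = 1.73e-05 and 4.15e-07). It exceeded mNPC by 1.16 and 1.93 (limma adjusted p = 0.0152 and 0.000228). Scaled to miRNA reads these 4 values were 0.93, 1.74, 0.90 and 1.67, all past the threshold (limma adjusted p = 0.00909, 3.34e-05, 0.0253 and 0.000133). For miR-30d-5p, the difference between mCtx and mESC was 1.12 on the RPM scale (limma adjusted p = 0.000257) and -0.12 when scaled to miRNA reads (limma adjusted p = 0.595). Those between mNPC and mESC, 1.02 for miR-30a-5p, 1.05 for miR-30e-5p and 0.88 for miR-30d-5p on the RPM scale, were 0.03, 0.07 and -0.10 when scaled to miRNA reads, and none of these passed. Among all entries, 42.4% were called in mCtx against mESC, 17.3% in mCtx against mNPC and 30.8% in mNPC against mESC on the RPM scale.

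**Figure D4:**
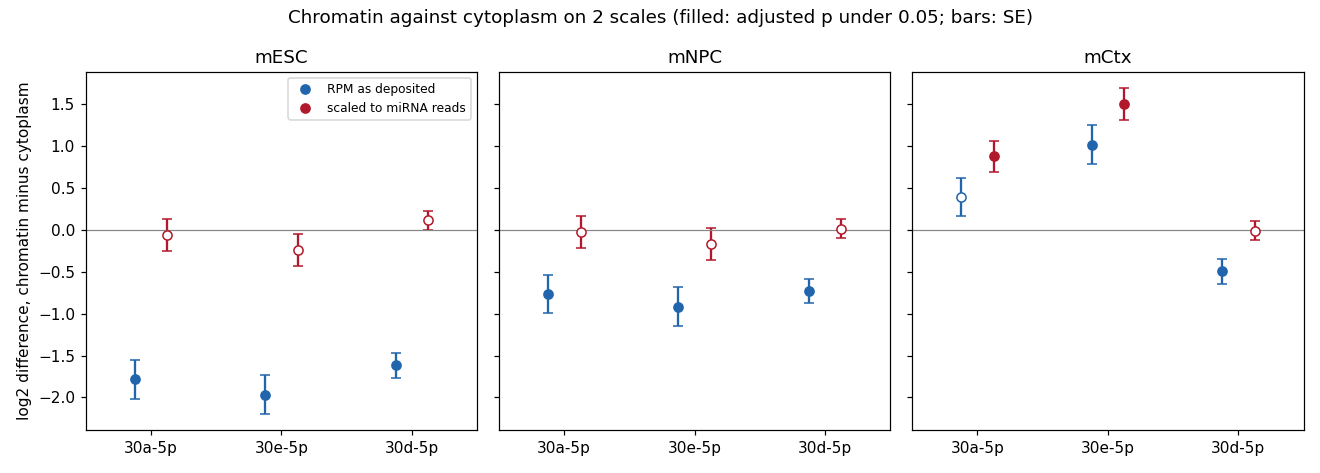
log2 difference of chromatin minus cytoplasm (vertical axis) for miR-30a-5p, miR-30e-5p and miR-30d-5p in mESC, mNPC and mCtx, from RPM as deposited (blue) and scaled to miRNA reads (red); bars are SEs of the limma fit and filled points have an adjusted p under 0.05. In mESC and mNPC the blue points lie below 0 and the red ones near 0, whereas in mCtx miR-30e-5p lies above 0 on both scales (1.02 and 1.498).

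Nucleoplasm and cytoplasm were closer. In mESC 0 of the 10 entries were higher and 0 lower in nucleoplasm than in cytoplasm (of all entries, 14% higher and 5.17% lower, 19.2% called). miR-30a-5p averaged 10500 ± 735 RPM in nucleoplasm and 10514 ± 284 RPM in cytoplasm there (SD, n = 3 each). Although not called, miR-30c-1-3p lay lower in mESC nucleoplasm without overlap, at 26.7, 57.0 and 55.1 RPM, against 116, 208 and 220 RPM in cytoplasm. The summed miR-30c entries, given below, were called lower there. In mNPC 0 were higher and 2 lower (of all entries, 9.4% higher and 6.11% lower, 15.5% called), the 3p strands described below, and miR-30e-5p differed by -0.63 (SE 0.23, limma adjusted p = 0.0821). In mCtx 1 was higher and 0 lower (of all entries, 13.5% higher and 11.8% lower, 25.3% called). It was miR-30e-5p, with 12234, 13509 and 10582 RPM in nucleoplasm, against 4653, 6745 and 8523 RPM in cytoplasm, a difference of 0.90 (SE 0.23, limma adjusted p = 0.00574). Over fits without 1 library, this difference ran from 0.668 to 1.105.

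Between the nuclear fractions, 0 of the 10 entries were higher and 6 lower in mESC chromatin than in mESC nucleoplasm (of all entries, 19.9% higher and 30.9% lower, 50.8% called). In mNPC 0 were higher and 1 lower (of all entries, 16.9% higher and 10.9% lower, 27.8% called), and in mCtx 0 were higher and 1 lower (of all entries, 14.9% higher and 17.2% lower, 32.1% called). Of the miRNA entries alone, 51.4%, 14.1% and 26.3% were lower in mESC, mNPC and mCtx, and 2.87%, 2.63% and 1.67% higher. In mESC, miR-30a-5p averaged 3120 ± 778 RPM in chromatin and 10500 ± 735 RPM in nucleoplasm (SD, n = 3 each), a difference of -1.78 (SE 0.23, limma adjusted p = 1.74e-06). The mESC differences were -1.99 for miR-30e-5p and -1.55 for miR-30d-5p (limma adjusted p = 6.02e-07 and 3.81e-08), and none of the 3 was called when scaled to miRNA reads. In mNPC and mCtx the single entry was miR-30d-5p. It averaged 13563 ± 2578 RPM in mNPC chromatin and 26449 ± 1654 RPM in mNPC nucleoplasm (SD, n = 3 each), a difference of -0.98 (SE 0.15, limma adjusted p = 2.51e-05). In mCtx it averaged 14118 ± 1458 RPM in chromatin and 23957 ± 1930 RPM in nucleoplasm, a difference of -0.77 (SE 0.15, limma adjusted p = 0.000439). On the scale of miRNA reads, these were -0.25 and -0.21 and did not pass (limma adjusted p = 0.167 and 0.214), and in mCtx 2 entries were higher and 0 lower in chromatin (of all entries, 16.8% higher and 11.8% lower, 28.6% called). These were miR-30a-5p, with a difference of 0.52 (limma adjusted p = 0.0447), and miR-30e-5p, with a difference of 0.67 (limma adjusted p = 0.0116). On RPM their differences were -0.03 and 0.11, neither called (limma adjusted p = 1.0 and 0.934).

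The 3p strands, the partners that are usually discarded, were far lower and near the lowest listed values, so their values are given by library. All 6 were listed at 0 in every mESC chromatin library, where the lowest listed value was 45.2 to 54.8 RPM. The 3p entries together made up 0 to 0.389% of the family's reads in the nuclear groups, against 0.807%, 0.721% and 0.717% in mESC, mNPC and mCtx cytoplasm. With every value under 59.1 RPM, the highest of the libraries' lowest listed values, raised to it, no call of miR-30a-3p, miR-30d-3p or miR-30e-3p held. For miR-30d-3p this was fixed in advance, since all its values lie under that level. The calls of other 3p entries that held are named with them.

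miR-30c-1-3p was the highest of them. It read 116, 208 and 220 RPM in mESC cytoplasm, 371, 565 and 552 RPM in mNPC cytoplasm, and 93.2, 112 and 133 RPM in mCtx cytoplasm. The mNPC libraries lay above all others, and mESC and mCtx overlapped. The standard error of this entry is shared with groups that hold zeros, and neither mNPC against mESC nor mCtx against mNPC was called on RPM. With values raised to 59.1 RPM both were (limma adjusted p = 0.000482 and 1.31e-05). In mNPC chromatin it read 120, 84.7 and 88.6 RPM, all below the cytoplasmic libraries, and in mCtx chromatin 0, 44.4 and 33.9 RPM. Its listing at 0 in mESC chromatin, against 116 to 220 RPM in cytoplasm, passed the test (limma adjusted p = 0.000136). It also passed with values raised to 59.1 RPM (limma adjusted p = 0.000208). Neither fit allows for the miRNA share of listed reads, 27.5% in mESC chromatin against 82.7% in mESC cytoplasm. With lowest listed values of 45.2 to 54.8 RPM in mESC chromatin, a lower share of this entry among miRNA reads there was not shown.

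Its copy on chromosome 1, miR-30c-2-3p, read 38.6, 0 and 101 RPM in mESC cytoplasm, 72.0, 150 and 126 RPM in mNPC cytoplasm, and 183, 98.7 and 95.7 RPM in mCtx cytoplasm. Here mNPC and mCtx overlapped. In mCtx nucleoplasm it read 64.9, 55.0 and 65.5 RPM and in mCtx chromatin 28.3, 0 and 31.4 RPM, so the fractions were ordered without overlap. In mNPC its lower level in chromatin, with 0, 51.7 and 0 RPM, than in cytoplasm passed the test (limma adjusted p = 0.0131), also with values raised to 59.1 RPM (limma adjusted p = 0.00464). It was lost with only these groups in the fit (0.0664) and without mNPC chromatin replicate 1 (0.0673) or replicate 3 (0.0772). The copies thus differed in cytoplasm: miR-30c-1-3p was the higher one in all mNPC libraries, whereas in mCtx miR-30c-2-3p was higher in replicate 1 and miR-30c-1-3p in replicates 2 and 3.

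The strands of the chromosome 15 pair were listed in few libraries. miR-30b-3p read 90.0, 79.1 and 150 RPM in mNPC cytoplasm, 0, 21.4 and 16.8 RPM in mCtx cytoplasm and 8.77 RPM in 1 mCtx nucleoplasm library, and was listed at 0 elsewhere. miR-30d-3p read 36.0, 45.2 and 56.9 RPM in mNPC cytoplasm, and 6.19 and 9.24 RPM in 1 library each of mCtx nucleoplasm and cytoplasm. Both were called higher in mNPC cytoplasm than in mNPC nucleoplasm (limma adjusted p = 4.91e-06 for miR-30b-3p and 4.38e-06 for miR-30d-3p). All nucleoplasm libraries listed them at 0, with lowest listed values of 30.2 to 34.0 RPM. These lie close to the cytoplasmic level of miR-30d-3p, so the size of its difference is not known. Raising values to 59.1 RPM cannot test it, since all values of miR-30d-3p lie below that and the difference becomes 0 by construction. In mNPC chromatin the lowest listed values, 32.5 to 59.1 RPM, reach the level of miR-30d-3p, so a difference there was not detectable at this depth. With values raised to 59.1 RPM, miR-30b-3p still passed against mNPC chromatin, mNPC nucleoplasm and mESC cytoplasm (limma adjusted p = 6.29e-05, 0.000289 and 5.1e-05), and mCtx cytoplasm remained lower than mNPC cytoplasm (limma adjusted p = 7.29e-05). On RPM as deposited, this last call had a limma adjusted p of 0.00133, and of 0.072 with only these groups in the fit.

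miR-30a-3p was above 0 in 9 libraries and miR-30e-3p in 16. In cytoplasm miR-30a-3p read 42.7, 49.4 and 77.2 RPM in mNPC and 0, 0 and 27.7 RPM in mCtx, and was at 0 in mESC (limma adjusted p = 0.0176 for mNPC against mESC). miR-30e-3p read 0, 66.4 and 89.4 RPM in mNPC cytoplasm and 48.5, 62.4 and 61.3 RPM in mCtx cytoplasm, and was at 0 in mESC cytoplasm (limma adjusted p = 0.0125 for mCtx against mESC). A single mNPC chromatin library, replicate 2, held 148 RPM of miR-30a-3p and 162 RPM of miR-30e-3p, and the other libraries of the group 0 to 48.7 RPM.

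**Figure D5:**
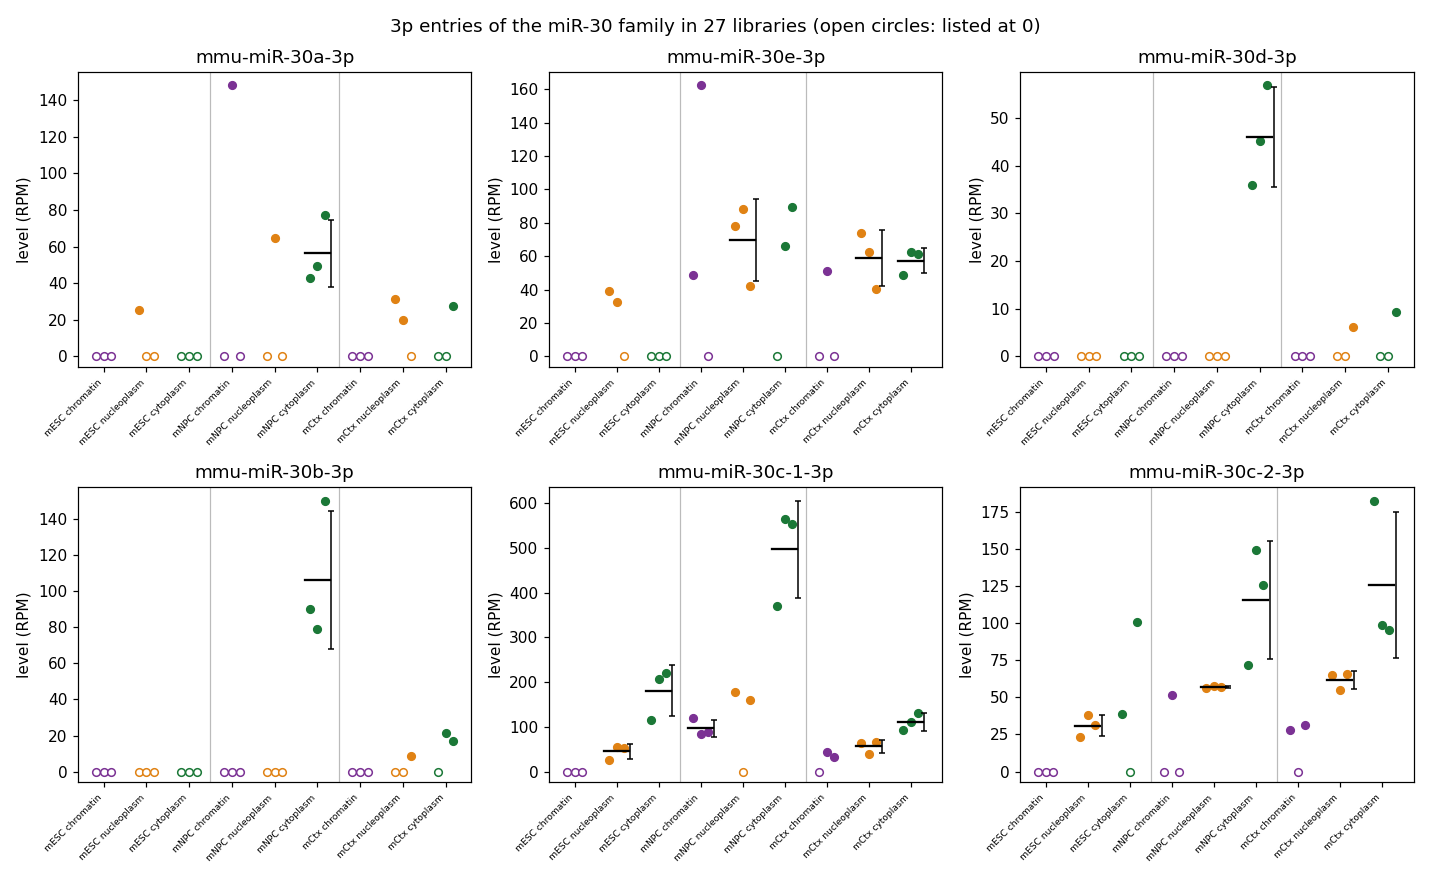
Level in RPM (vertical axes, linear, each with its own scale) of the 6 miR-30 3p entries in each of 27 libraries; open circles are listed at 0, and lines and bars are means and SDs (n = 3), drawn only where no library is at 0. miR-30b-3p and miR-30d-3p stand out in mNPC cytoplasm, and miR-30c-1-3p reaches 371 to 565 RPM there.

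The ratio of the 5p to the 3p strand was taken within libraries in which both were above 0, so that no scaling enters it. At least 2 such libraries were found in 2, 2, 1 and 6 of 9 groups for miR-30a, miR-30b, miR-30d and miR-30e. The test set for the ratios was to run over all fractions or all cell types and needed 2 such libraries in every group. No miRNA met this, narrower comparisons were not tested, and the ratios are a description. The 5p strand exceeded the 3p strand by 192 to 1146 times in 9 libraries for miR-30a (median 729), by 426 to 3589 times in 5 libraries for miR-30d (median 560), and by 96.0 to 738 times in 16 libraries for miR-30e (median 310). Libraries with the 3p strand at 0 are left out, and their ratios can lie above these ranges. In mCtx nucleoplasm replicate 3, miR-30a-5p read 22429 RPM, with its 3p strand at 0 and a lowest listed value of 5.16 RPM. In mNPC cytoplasm replicate 1, miR-30e-5p read 45913 RPM, with its 3p strand at 0 and a lowest listed value of 22.5 RPM. For miR-30e the ratio was 166 to 261 in mCtx nucleoplasm, 96.0 to 139 in mCtx cytoplasm and 510 to 707 in the mNPC cytoplasm libraries with both strands. The 5p level of miR-30e is itself lowest in mCtx cytoplasm, while its 3p level was 48.5 to 62.4 RPM there.

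miR-30b was the exception. In mNPC cytoplasm its 3p strand exceeded its 5p strand in all 3 libraries, with 5p to 3p ratios of 0.475, 0.536 and 0.324 in replicates 1, 2 and 3. In mCtx the 5p strand exceeded the 3p strand in the libraries with both, by 13.9 times in nucleoplasm and by 9.30 and 14.7 times in cytoplasm. In mESC no library listed the 3p strand, while the 5p strand reached 72.2 RPM. Over its 6 libraries the ratio thus ran from 0.324 to 14.7. Values within a few times of a library's lowest listed value enter every one of these ratios.

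Adding the arms of each miRNA within a library before the fit changed little for miR-30a, miR-30d and miR-30e. Their 5p strands hold nearly all reads, and their log2 differences changed by at most 0.014. Of 96 comparisons of a summed miRNA with its 5p entry, 95 gave the same call, and directions were not compared. In mNPC chromatin against cytoplasm the miR-30b sum differed by -5.34 and was called (limma adjusted p = 0.00631), while miR-30b-5p alone was not. For miR-30c only 3p strands enter. Its sum was higher in mNPC than in mESC cytoplasm (log2 difference 1.46, SE 0.44, limma adjusted p = 0.00969) and lower in mCtx than in mNPC cytoplasm (-1.33, SE 0.44, limma adjusted p = 0.0225). In mNPC chromatin it was lower than in mNPC cytoplasm (-2.39, SE 0.44, limma adjusted p = 0.000141).

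Among the 103 entries outside the family above 0 in all 27 libraries, the levels most like those of miR-30a-5p were those of miR-148b-3p (Pearson's r of log2 RPM 0.951), both entries of miR-26a-5p (0.915 each), miR-107-3p (0.891) and let-7i-5p (0.881). Within the family, miR-30d-5p reached 0.904 and miR-30e-5p 0.844. The libraries share their scaling, and 3 chromatin groups low in miRNA share are among them, so these values describe the profile over the 27 libraries. miR-148b-3p averaged 945 ± 271 RPM in mESC, 2711 ± 278 RPM in mNPC and 1486 ± 184 RPM in mCtx cytoplasm (SD, n = 3), the same order as miR-30a-5p.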

How the data were processed

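Small RNA libraries (RNA under 200 nt, depleted of rRNA, single reads of 100 bp, per the labels' protocols) were made from 3 fractions of 3 cell types. The authors deposited RPM per entry, per the file headers. The reads that make up its denominator, the aligner and the counting rule were not given in the sources used here. Deposited starts count from 0 and were raised by 1; names and hosts came from the GENCODE annotation of GRCm38 and sequences from RefSeq.

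log2(RPM + 1) of the 851 entries that reached 1 RPM in 3 or more libraries (418 of miRNA, all 10 members) was fitted with limma 3.58.1 in R 4.3.3, with trend and robust variance, 9 group means and 18 residual degrees of freedom. There were 18 contrasts and 6 differences of differences, each adjusted by Benjamini-Hochberg at 0.05. On simulated data for mESC chromatin against cytoplasm (851 entries, 200 of them changed by 2 on the log2 scale), the fit called 41% of the changed entries, and 4.7% of its calls were false, so a difference that was not called may still exist. Of 102 low member values, 82.4% came within 0.02 of a whole multiple of 0.1 times a library's lowest value, and the rest did not. Whether these steps are reads was not tested. Read counts were not recovered, and no counting interval is given. Values listed at 0 enter as 0.

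All members are named, library values are given for the highest members, and the 5 entries most like miR-30a-5p by Pearson's r were named. The members, lists and tests were chosen with earlier results of these data known. Alternatives: pseudocount 10, no or a stricter filter (50 RPM in 9 libraries), scaling to miRNA reads (also with each name once, added after seeing the data), centring on 106 entries listed in every library, a common floor, a replicate block, only the groups compared, and leaving out each library.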

Additional observations from a re-analysis of the deposited data

Results flagged for a closer look

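In 17 cases, over 10 entries and 6 comparisons, a fraction difference differed between cell types by a test of the difference of differences (limma, adjusted over 851 entries). For chromatin against cytoplasm, 30.8% of all entries were called in mNPC against mESC, 17.3% in mCtx against mNPC and 42.4% in mCtx against mESC. For nucleoplasm against cytoplasm in mCtx against mESC, 0 of the 10 were called, beside 19.5% of all entries. Many of these cases are thus not particular to the family. All are log2 differences of differences on the RPM scale, and where a group is listed at 0 the fitted value depends on the pseudocount and is no fold.

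For chromatin against cytoplasm in mNPC against mESC, the values were 1.02 for miR-30a-5p (limma adjusted p = 0.0209), 1.05 for miR-30e-5p (0.0203) and 0.88 for miR-30d-5p (0.00264). None of these passed when libraries were scaled to miRNA reads. Without mESC chromatin replicate 2 the values for miR-30a-5p and miR-30e-5p were 0.789 and 0.852, and without mNPC chromatin replicate 1 they were 0.825 and 0.768, none called; that of miR-30a-5p was 0.886 and not called without mNPC cytoplasm replicate 1. For miR-30b-3p and miR-30d-3p, listed in mNPC cytoplasm alone of these groups, the values were -6.69 (limma adjusted p = 0.000208) and -5.53 (0.000188).

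For chromatin against cytoplasm in mCtx against mNPC, the values were 1.16 for miR-30a-5p (limma adjusted p = 0.0152), 1.93 for miR-30e-5p (0.000228), 3.81 for miR-30b-3p (0.035) and 4.41 for miR-30d-3p (0.0031). The miR-30b-3p call was lost in 8 of the fits without 1 library, with values of 3.535 to 3.902. In mCtx against mESC they were 2.18 for miR-30a-5p (limma adjusted p = 1.73e-05), 2.98 for miR-30e-5p (4.15e-07) and 1.12 for miR-30d-5p (0.000257). Without mCtx cytoplasm replicate 1 the miR-30a-5p and miR-30e-5p calls in this paragraph were kept. Scaled to miRNA reads, the miR-30d-5p value was -0.12 and not called.

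For nucleoplasm against cytoplasm in mNPC against mESC, miR-30b-3p and miR-30d-3p gave -6.69 and -5.53 (limma adjusted p = 0.000368 and 0.000322). In mCtx against mNPC they gave 4.91 and 5.36 (limma adjusted p = 0.00896 and 0.000612), and miR-30e-5p gave 1.53 (0.00311). The share of all entries called was 11.3% and 9.52% in these comparisons. With values under 59.1 RPM raised to it, the miR-30d-3p differences were 0 by construction in all these comparisons, as all its values lie under it. Those of miR-30b-3p were -0.78 or 0.78 and passed (limma adjusted p = 0.00235, 0.00433, 0.0114 and 0.00767 in the order given).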

How the results depend on the processing

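For chromatin against cytoplasm, the miR-30a-5p difference scaled to miRNA reads was -0.058 in mESC, -0.025 in mNPC and 0.875 in mCtx, and with each mature name counted once (chosen after seeing the data) -0.052, -0.033 and 0.878. Centred on entries listed in every library it was 0.005 in mNPC and 1.995 in mCtx, where the median of all entries moved by 0.77 and 1.60 (0.93 in mESC). Without 1 library it ran from -1.91 to -1.559 in mESC, -0.961 to -0.602 in mNPC (not called without chromatin replicate 3) and 0.137 to 0.656 in mCtx (called without cytoplasm replicate 1). For mCtx against mESC cytoplasm it was 0.396 scaled to miRNA reads and 0.696 with only these groups, neither called, and 0.434 to 0.954 without 1 library.

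Entries called in mESC chromatin against cytoplasm numbered 3 of 10 scaled to miRNA reads and 1 with names once, in mNPC 3, 3 and, centred, 3. Scaled to miRNA reads, 45.8% of all entries were called in mESC and 29.3% in mNPC. For the other settings in this paragraph no share of all entries is given, so the counts describe only how the family's calls moved. In mCtx there were 5 with pseudocount 10, 5 with a common floor and 1 to 5 without 1 library (5 without chromatin replicate 3, 1 without cytoplasm replicate 3). The stricter filter left 3 in mNPC against mESC and 2 in mCtx against mNPC cytoplasm, since it tests 7 members. Only the groups compared gave 3 in mCtx against mESC. Of summed miRNAs, 2 were called in mESC and 2 in mNPC chromatin against cytoplasm scaled to miRNA reads, 2 and 2 with names once, and 2 in mNPC centred. In mCtx against mESC cytoplasm there were 2 scaled, 2 with only these groups and 2 to 4 without 1 library (2 without mCtx cytoplasm replicate 1). On RPM as deposited, 57.6%, 41.5% and 42.5% of all 713 entries after summing were called in these 3 comparisons.

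The direction of miR-30d-5p turned when scaled to miRNA reads. It was 0.112 in mESC and 0.015 in mNPC chromatin against cytoplasm, 0.167 in mESC chromatin against nucleoplasm, and -0.097 and -0.123 in the differences of mNPC and mCtx from mESC, none called. With names once these were 0.119, 0.007, 0.176, -0.112 and -0.127, and mCtx against mNPC cytoplasm was 0.040. Centred, miR-30d-5p was 0.044 in mNPC and 1.109 in mCtx, and miR-30b-5p 1.095 in mCtx. miR-30b-5p in mNPC against mESC cytoplasm was -0.144 without mESC cytoplasm replicate 2, and up to 2.761 without another library. For these turns the cause was not tested.

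Equal replicate numbers were not shown to pair libraries: their correlations ran from -0.12 to 0.187, with 8 of 27 over 0.1. With a replicate block, which cell type comparisons cannot take, the miR-30a-5p differences were -1.786, -0.770 and 0.394 (limma adjusted p = 2.81e-05, 0.0241 and 0.244), and 1 further call was made, miR-30b-5p in mNPC chromatin. No test of arm ratios was made, paired or not, and there were no hairpin entries to add. A common floor ended 19 calls of low entries, and values under about 59.1 RPM are at the limit of these libraries. Where all values compared lay under the floor, as for miR-30d-3p, this outcome was fixed in advance.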
